A study of Mus musculus and Homo sapiens with 12 samples.

Results

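L1MdGf elements are copies of a mouse lineage of long interspersed nuclear element 1 (LINE-1 or L1), annotated as the subfamilies L1MdGf_I and L1MdGf_II. They were taken from the mouse repeat table by the subfamily name in each row, without use of any measured value. The rule found 5215 of 3158171 annotated repeat elements in the mm10 genome, 2363 L1MdGf_I and 2852 L1MdGf_II. Less m5C-precipitated L1MdGf RNA was counted in Tet2-KO mES cells than in WT, relative to other repeats. L1MdGf_I fell 1.60-fold. This call depended on how libraries were scaled and was also lost when replicate numbers entered the fit. L1MdGf_II was lower in every Tet2-KO library without passing the test.

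An L1 element moves by copying its RNA into DNA. A complete mouse L1 begins with a promoter made of repeated monomers, followed by ORF1, which encodes an RNA-binding protein, and ORF2, which encodes an endonuclease and reverse transcriptase. Most insertions are shortened from the 5′ end and lack the promoter. The lineages L1MdGf, L1MdTf and L1MdA include the young L1 families of the mouse, and L1 RNA is abundant on chromatin in mouse embryonic stem cells and early embryos. TET2 oxidizes 5-methylcytosine (m5C) in DNA and RNA.

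The study asked how loss of TET2 alters m5C on RNA bound to chromatin (caRNA), which is recovered from the chromatin pellet of fractionated nuclei. The mouse libraries were 3 of WT and 3 of Tet2-KO mES cells. In each, caRNA was fragmented, precipitated with an antibody against m5C and sequenced (meRIP–seq). Both lines were kept in serum with LIF, CHIR99021 and PD0325901, conditions that hold mES cells in a naive state, and were passaged on gelatin to remove feeder cells. The WT and Tet2-/- lines were a gift to the study's laboratory, and the sources used here do not give the allele or say whether a line is 1 clone. The study calls its replicates biological but the sources used here do not tie each library to a separate culture, so p-values measure the spread between these libraries, which may be technical. The table holds repeats only, so neither Tet2 nor markers of the cell type could be checked in it. No input or spike-in values were analysed here. A difference between the groups can therefore come from the amount of RNA or from its m5C, which cannot be told apart, and all levels are shares of repeat counts.

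The sequences of the subfamilies can be compared in the amplicon that the study designed for L1MdGf RNA after bisulfite conversion, which turns unmethylated cytosine into uracil, read as T. Its primers are shown here because they say which L1MdGf copies the assay reads. Capitals mark primer bases that stand for a converted cytosine.
forward primer: ataTtagaTTtaaaaagggaagta
reverse transcription primer: tattctAttActAatActAAcatct
With C and T taken as equal and up to 2 mismatches allowed in each primer, both sites lay within 500 bases in 708 of 745 L1MdGf_I elements of 5000 bp or longer and in 568 of 677 L1MdGf_II elements of that length. Both primers matched without a mismatch in 568 of these 708 L1MdGf_I copies (80.2%), but in 20 of the 568 L1MdGf_II copies (3.52%). In the relatives L1MdTf_I to L1MdTf_III and L1MdA_I to L1MdA_III, the share of exact matches ran from 0.376% (4 of 1063, L1MdTf_II) to 10.9% (161 of 1479, L1MdA_III), the latter above that of L1MdGf_II.

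The most frequent sequence between and including the primer sites was 120 bases long in each subfamily. It is printed for both L1MdGf subfamilies, for L1MdTf_I and for L1MdA_I to show how they differ. Capitals in the L1MdGf_I line mark positions at which any of the other 3 differs, and capitals in the other lines mark the bases that differ from L1MdGf_I.
L1MdGf_I: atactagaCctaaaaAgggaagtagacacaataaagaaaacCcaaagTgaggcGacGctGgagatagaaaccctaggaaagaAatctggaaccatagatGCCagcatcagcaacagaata
L1MdGf_II: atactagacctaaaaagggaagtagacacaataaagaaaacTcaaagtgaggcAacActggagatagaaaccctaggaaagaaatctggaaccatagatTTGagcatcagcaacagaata
L1MdTf_I: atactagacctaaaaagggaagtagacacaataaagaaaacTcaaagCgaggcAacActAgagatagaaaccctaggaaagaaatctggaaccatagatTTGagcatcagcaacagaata
L1MdA_I: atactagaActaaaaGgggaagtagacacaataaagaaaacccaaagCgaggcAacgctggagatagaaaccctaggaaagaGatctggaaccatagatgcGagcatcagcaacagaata
The L1MdGf_I sequence lies, for example, on the minus strand at chr13:5176672-5176791 of mm10, and the L1MdGf_II sequence on the minus strand at chr13:9837559-9837678, inside the L1MdGf_II element with the most counts.

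Counted from 1 at the 5′ end of the L1MdGf_I sequence, L1MdGf_II carried C42T, G54A, G57A, G100T, C101T and C102G. L1MdTf_I carried these 6 substitutions and also T48C and G60A. L1MdA_I carried C9A, A16G, T48C, G54A, A83G and C102G. The cluster at positions 100 to 102 falls in the site of the reverse transcription primer, which covers positions 96 to 120. Of the differences listed, G54A and C102G were carried by all 3 of the other sequences. The L1MdGf_I sequence held 23 cytosines and 2 CG dinucleotides, and the L1MdGf_II sequence held 20 cytosines and 0 CG. L1MdGf_I was the more uniform of the pair: 378 of its 708 long copies with both sites (53.4%) carried the sequence printed, compared with 80 of 568 (14.1%) for L1MdGf_II. The amplicon lay inside an open reading frame of at least 900 bases in 569 of the 708 and 298 of the 568 copies.

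In length, L1MdGf_I elements ranged from 13 to 15139 bp with a median of 1305 bp, and 746 reached 5000 bp. L1MdGf_II elements ranged from 11 to 13073 bp with a median of 1145 bp, and 684 reached 5000 bp. Spans beyond the size of an L1 can include other insertions, because the table gives 1 start and 1 end for each element. An open reading frame of at least 3600 bases on the element's own strand, long enough for most of ORF2, was present in 318 of 745 long L1MdGf_I elements with sequence (42.7%) and in 29 of 677 long L1MdGf_II elements (4.28%). Of all L1MdGf elements with such a frame, 331 had the same length of 3846 bases. Long L1MdGf_I copies had a median GC content of 42.1% and 13.0 CG dinucleotides per kb, and long L1MdGf_II copies had 40.9% and 9.50 per kb. Medians of the same 6 relatives ran from 40.9% to 42.6% GC and from 9.69 to 14.3 CG per kb.

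CNGGG, a motif known at sites of the RNA m5C methyltransferase NSUN2, was counted on both strands with overlaps kept. It occurred on at least 1 strand of 100% of long copies in both L1MdGf subfamilies, and likewise in L1MdTf_I to L1MdTf_III and L1MdA_I to L1MdA_III, the relatives searched. Its median density on the sense strand was 3.56 per kb in long L1MdGf_I and 3.21 per kb in long L1MdGf_II, within the 3.04 to 4.48 per kb of the 6 relatives. A match of these letters is not a measured m5C site.

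How far a read can be assigned to 1 copy within these lineages was described by the share of an element's 100-base windows that occur once among all L1MdGf, L1MdA and L1MdTf elements. Other repeats and the rest of the genome were not searched. Overlapping annotated spans were not merged, so a window they share counts as repeated. The share of unique windows had a median of 12.2% in long L1MdGf_I elements and 36.8% in long L1MdGf_II elements, within the range of 3.21% (L1MdTf_I) to 40.1% (L1MdA_III) in the 6 relatives. Counts were fractional, and 3.36% of the non-zero L1MdGf values were whole numbers to within 1e-09. Values for a single element are therefore less certain than sums over a subfamily. Windows shared within a subfamily and between subfamilies were not counted apart. How far reads shared between subfamilies affect the sums was not tested.

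Over the 4 repeat classes used (DNA, LINE, LTR and SINE), a WT library held 2199886 to 3318565 counts and a Tet2-KO library 1532029 to 1999210, so every Tet2-KO library was shallower than every WT library. Of the 5215 L1MdGf elements, 4354 had a count in at least 1 library, 2365 in all 6, and 861 in none. All but 9 of the 861 were shorter than 5000 bp. Between 3607 and 3741 elements had counts in a WT library and between 2933 and 3190 in a Tet2-KO library, in which fewer counts were available. Counts were spread over many copies: 215 L1MdGf_I and 202 L1MdGf_II elements together held 50% of the counts of their subfamily, and the 10 highest elements of each held between 3.22% and 10.5% of it in any library.

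Of all repeat counts, L1MdGf elements held 6.10%, 6.01% and 6.27% in WT and 4.45%, 4.28% and 4.55% in Tet2-KO cells. Of LINE counts alone it held 9.45% ± 0.0831 (SD, n = 3) in WT and 7.51% ± 0.308 (SD, n = 3) in Tet2-KO. Neither share overlapped between the groups.

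L1MdGf_I was counted at 46728, 48645 and 51041 CPM (counts per 1000000 repeat counts, scaled by TMM over subfamilies) in WT and at 31189, 28846 and 31711 CPM in Tet2-KO cells. Every Tet2-KO library lay below every WT library. The means were 48805 ± 2161 and 30582 ± 1526 CPM (SD, n = 3), and the fitted log2 change was −0.67 ± 0.0733 (SE), with an adjusted p of 0.00403 in the edgeR quasi-likelihood test over 547 subfamilies. Of all tested subfamilies, 1.65% fell and 0.366% rose by this test. L1MdGf_II was counted at 16295, 14485 and 18929 CPM in WT and at 11711, 11684 and 9833 CPM in Tet2-KO cells. These groups did not overlap either, as was the case in the same direction for 10.4% of all subfamilies. The means were 16570 ± 2235 and 11076 ± 1077 CPM (SD, n = 3). Its log2 change of −0.58 ± 0.131 did not pass, with an adjusted p of 0.0940 in the edgeR test, whereas DESeq2 called it with an adjusted p of 0.000357, as it called 6.37% of subfamilies in this direction.

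**Figure D1:**
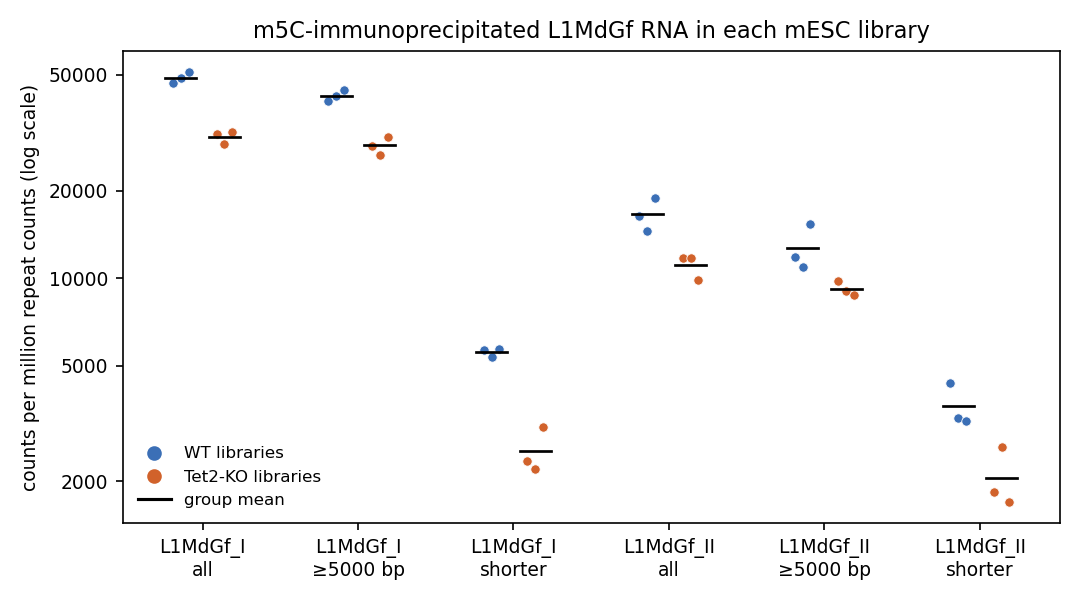
CPM (vertical axis, log scale) of L1MdGf_I and L1MdGf_II, for all elements, those of 5000 bp or longer and the shorter ones. Columns of all elements are scaled by the subfamily fit, and columns of length classes by the fit of length classes. Points are single libraries (blue, WT; orange, Tet2-KO), and black lines are means of 3; in all 6 columns the Tet2-KO points lie below the WT points.

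These changes are relative values, and the scaling set their size. Over the 547 tested subfamilies the median log2 change was 0.12. With library sizes taken from the fit of single elements in place of those from the subfamily fit, the median moved to 0.56 and L1MdGf_I to −0.22, with an adjusted p of 0.157 in edgeR, so that the call was lost. No subfamily fell and 6 rose at that scaling, and at an unadjusted p under 0.05 in edgeR 15 were lower and 110 higher. Measured from the median of all subfamilies, L1MdGf_I stood at −0.79 with the first scaling and −0.78 with the second, and L1MdGf_II at −0.70 and −0.69. Exchanging library sizes shifts all subfamilies by nearly the same amount, so these distances were bound to agree.

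Ratios between L1 lineages within a library do not depend on the scaling. The log2 ratio of L1MdGf_I to L1MdTf counts was −2.82, −2.78 and −2.89 in WT and −2.84, −2.95 and −2.72 in Tet2-KO libraries. The groups overlapped, and their means differed by −0.0056 (exact permutation test, two-sided, p = 1; adjusted p = 1 over 5 ratios). The ratio of L1MdGf_II to L1MdTf differed by 0.09 between the groups, also with overlap (exact permutation p = 0.3, adjusted p = 0.5). Against L1MdA, L1MdGf_I was at −1.48, −1.49 and −1.52 in WT and at −2.47, −2.65 and −2.40 in Tet2-KO libraries. These groups lay apart by −1.01 on the log2 scale (exact permutation p = 0.1, adjusted p = 0.25), where 0.1 is the smallest p that 3 libraries against 3 allow. The L1MdA counts were summed over 7 subfamilies, of which 5 had a fitted log2 change below 0. L1MdA_I was at 0.97 and L1MdA_II at 0.23, so the difference describes the sum and not each L1MdA subfamily. L1MdGf_II against L1MdA differed by −0.91, again without overlap (exact permutation p = 0.1, adjusted p = 0.25). L1MdGf_I exceeded L1MdGf_II by 1.57 ± 0.163 (SD, n = 3) in WT and 1.47 ± 0.199 in Tet2-KO libraries on the log2 scale, with overlap (exact permutation p = 0.5, adjusted p = 0.625).

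The other L1Md subfamilies set the frame for these values. The test covered 25 L1Md subfamilies. Of the 23 outside L1MdGf, 5 fell, 1 rose and 17 did not pass, with a median log2 change of −0.45, beside 0.12 over all 547 subfamilies. All 3 L1MdTf subfamilies fell, with log2 changes from −0.73 to −0.55, a range that holds −0.58 for L1MdGf_II and −0.67 for L1MdGf_I. It also holds L1MdV_I at −0.71, L1MdF_I at −0.61 and L1MdA_IV at −0.59, and L1MdN_I was lowest at −0.87. Among the 7 L1MdA subfamilies 1 rose, L1MdA_I, at 0.97 ± 0.0838, 1 fell, L1MdA_III, at −0.47 ± 0.0832, and 5 did not pass. Of the 7, 5 lay below 0, and their median over all 7 was −0.45. Among 7 L1MdF subfamilies 1 fell and 6 did not pass. The single L1MdN, the 3 L1MdV and the 2 L1MdMus subfamilies did not pass. L1MdGf_I was thus 1 of 6 L1Md subfamilies that fell, and its change was opposite in sign to that of L1MdA_I.

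**Figure D2:**
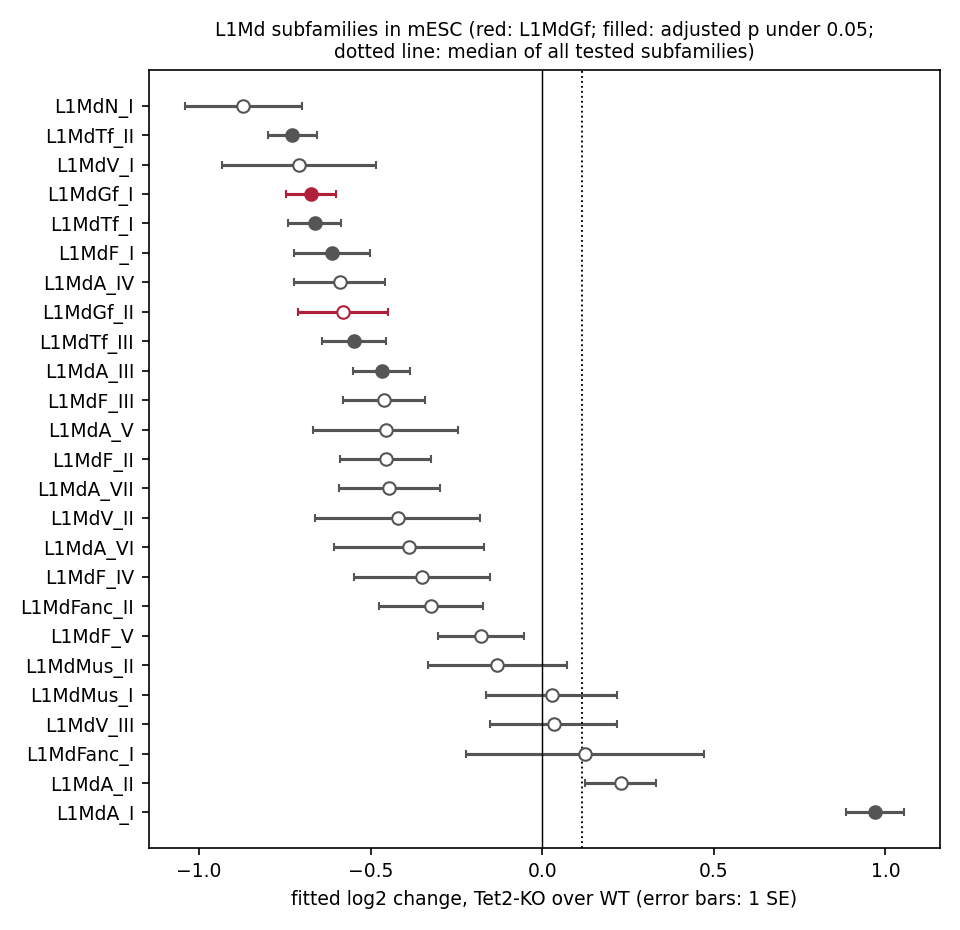
Fitted log2 change of each of 25 L1Md subfamilies (horizontal axis, Tet2-KO over WT; bars, 1 SE), with L1MdGf in red, filled points for an adjusted p under 0.05 and a dotted line at the median of all tested subfamilies, 0.12. L1MdGf_I at −0.67 and L1MdGf_II at −0.58 lie among the L1MdTf subfamilies, as do L1MdV_I, L1MdF_I and L1MdA_IV. L1MdA_I at 0.97 lies on the other side of 0.

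Elements of 5000 bp or longer hold room for both reading frames, whereas shorter ones are mostly 5′-truncated copies. Long L1MdGf_I elements held 88.4% ± 0.534 of the subfamily's counts in WT and 91.8% ± 0.865 in Tet2-KO libraries (SD, n = 3). CPM of length classes was scaled by TMM over such classes and not over subfamilies. That of the long elements was 40764, 42336 and 44245 in WT and 28568, 26491 and 30687 in Tet2-KO cells. The groups did not overlap, and the log2 change was −0.57 ± 0.0743 with an adjusted p of 0.0115 in edgeR over 708 classes of subfamily and length, of which 1.55% fell. Short L1MdGf_I elements were at 5685, 5362 and 5697 CPM in WT and at 2357, 2203 and 3090 CPM in Tet2-KO cells. They fell by 1.13 ± 0.160 on the log2 scale, 2.19-fold, with an adjusted p of 0.0151 in edgeR. This call was lost without WT replicate 1 (log2 change −1.14, adjusted p = 0.0588) or WT replicate 3 (−1.15, adjusted p = 0.0579). With library sizes from the element fit the long class was at −0.17 and the short class at −0.73, and neither passed (adjusted p = 0.235 and 0.0848 in edgeR).

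In L1MdGf_II, neither length class passed the test. Long elements were at 11823, 10903 and 15297 CPM in WT and at 9765, 9004 and 8769 CPM in Tet2-KO cells, with a log2 change of −0.47 ± 0.140 and an adjusted p of 0.181 in edgeR. Short elements were at 4374, 3300 and 3224 CPM in WT and at 1846, 2618 and 1704 CPM in Tet2-KO cells, with −0.82 ± 0.220 and an adjusted p of 0.158 in edgeR. In both classes the Tet2-KO libraries lay below the WT libraries, as in 11.6% of all classes tested. DESeq2 called both, with adjusted p of 0.0315 and 0.00352, as it called 8.06% of classes in this direction.

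Whether long and short copies differed in their change was read from the log2 ratio of long to short counts within a library. For L1MdGf_I the ratio was 2.84, 2.98 and 2.96 in WT and 3.60, 3.59 and 3.31 in Tet2-KO libraries. It was higher in every Tet2-KO library, by 0.57 on average (exact permutation p = 0.1, the smallest possible; adjusted p = 0.2 over 2 ratios). For L1MdGf_II it was 1.43, 1.72 and 2.25 in WT and 2.40, 1.78 and 2.36 in Tet2-KO libraries, which overlapped, with a difference of 0.38 (exact permutation p = 0.2, adjusted p = 0.2). A shift towards long copies was not particular to L1MdGf. The same difference was above 0 in 17 of the 23 other L1Md subfamilies, with a median of 0.37. Their groups lay apart in that direction in 10 and in the other direction in 1, L1MdV_I, at −1.24. The share over all subfamilies is not given here, so these counts describe L1Md subfamilies only.

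Finer length bins, each holding its lower limit and not its upper one, showed where the counts lay. Per kb of element, L1MdGf_I in WT went from 0.820 ± 0.184 CPM in elements under 500 bp to 10.3 ± 0.498 CPM in those of 7000 bp or longer (SD, n = 3). Tet2-KO libraries were lower without overlap in each L1MdGf_I bin from 500 bp upward. The log2 ratio of the group means was −1.04 from 500 to 1000 bp, −1.46 from 1000 to 2000 bp and −1.14 from 2000 to 5000 bp. It was −0.79 from 5000 to 6000 bp, −0.69 from 6000 to 7000 bp and −0.40 from 7000 bp upward. The ratio was thus closest to 0 in the elements with the longest spans, which can include other insertions. L1MdGf_II had a lower WT mean per kb than L1MdGf_I in every bin, and was at 3.14 ± 0.695 CPM per kb from 7000 bp upward. Its groups lay apart in the 3 bins between 2000 and 7000 bp, with log2 ratios of −1.03, −0.44 and −0.52. Under 500 bp its log2 ratio was 0.65, with overlap between the groups.

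Elements just outside and just inside the length limit of 5000 bp are given as a description. In L1MdGf_I, the 35 elements from 4500 bp up to the limit had 6.66, 6.09 and 7.12 CPM per kb in WT and 3.18, 2.50 and 2.79 in Tet2-KO libraries. The 35 elements in the 500 bp above the limit had 4.22, 3.81 and 4.89 in WT and 3.54, 3.21 and 1.91 in Tet2-KO libraries. The limit thus fell between a higher and a lower WT level in L1MdGf_I. In L1MdGf_II, the 49 elements below it had 1.99, 1.39 and 1.71 CPM per kb in WT and 0.825, 1.11 and 0.945 in Tet2-KO libraries. The 42 above it had 1.47, 1.14 and 1.86 in WT and 1.31, 1.39 and 0.965 in Tet2-KO libraries.

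Truncation was also read from where each element starts and ends on the subfamily's consensus. Copies were called complete at both ends when they began within the first 700 bases of the consensus and lacked at most 20 bases at its 3′ end. In L1MdGf_I, 692 such copies held 84.5% ± 0.643 of the counts in WT, and the log2 ratio of the group means was −0.63. The 1307 copies that kept only the 3′ end held 10.9% ± 0.480, and their ratio was −1.15. The 364 copies without the 3′ end were at −0.62. In L1MdGf_II the same classes held 647, 1608 and 597 copies, with ratios of −0.54, −0.86 and −0.26, and only the last overlapped between the groups. The ratio was thus furthest below 0 in the 3′-end copies of either subfamily. These classes carry no test of their own.

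The share of counts in elements with a long open reading frame was 55.7% ± 1.62 in WT and 57.5% ± 0.733 in Tet2-KO for L1MdGf_I (exact permutation p = 0.2, adjusted p = 0.533 over 8 shares). It came from 326 elements, 13.8% of the subfamily. In L1MdGf_II, 29 such elements held 5.80% ± 0.584 and 6.73% ± 0.524 (exact permutation p = 0.2, adjusted p = 0.533). In L1MdGf_I the log2 ratio of the group means was −0.63 in the 326 elements with such a frame, of which 318 were long, and −0.63 in the 427 long elements without it. Per kb, however, copies with the frame were counted at 12.3 CPM in WT compared with 5.81 CPM for long copies without it.

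Elements with the primer sites of the L1MdGf amplicon held 86.9%, 88.5% and 87.9% of L1MdGf_I counts in WT and 91.7%, 91.4% and 91.5% in Tet2-KO libraries. Every Tet2-KO library was higher, by 3.78 percentage points on average (exact permutation p = 0.1, adjusted p = 0.533 over 8 shares). For L1MdGf_II the share was 68.7% ± 5.52 and 71.0% ± 0.221, with overlap (exact permutation p = 0.7, adjusted p = 0.8). The amplicon class is made up largely of long copies. In summed CPM it stood at a log2 ratio of −0.61 in L1MdGf_I and −0.54 in L1MdGf_II. The libraries used here do not give the methylation level of a cytosine in the amplicon.

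Position in genes was compared in the same way. L1MdGf_I elements that overlapped an annotated gene numbered 748 and held 33.0% ± 0.539 of its counts in WT and 32.2% ± 0.963 in Tet2-KO (exact permutation p = 0.4, adjusted p = 0.64). For L1MdGf_II, 749 elements held 28.7% ± 2.57 and 26.7% ± 3.47 (exact permutation p = 0.6, adjusted p = 0.8). Inside genes, the 325 L1MdGf_II elements on the gene's strand had a log2 ratio of −0.23 with overlapping groups, and the 445 on the opposite strand had −1.02 with groups apart. In L1MdGf_I the same classes were at −0.72 and −0.68. The sources used here do not say whether reads were counted by strand, so L1 reads and reads of an overlapping gene cannot be told apart.

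Elements with the most unique windows among L1MdGf, L1MdA and L1MdTf gave values in the same direction. Those of which at least 50% of windows were unique numbered 191 in L1MdGf_I and 475 in L1MdGf_II. The L1MdGf_I elements among them were at 440, 365 and 312 CPM in WT and at 237, 246 and 234 CPM in Tet2-KO cells. The groups did not overlap, and the log2 ratio of their means was −0.64. The L1MdGf_II elements were at 1655, 1623 and 1889 CPM in WT and at 1104, 1505 and 1198 CPM in Tet2-KO cells, also apart, at −0.44. Their share of subfamily counts was 0.768% ± 0.166 in WT and 0.784% ± 0.0608 in Tet2-KO for L1MdGf_I (exact permutation p = 0.9, adjusted p = 0.9). For L1MdGf_II it was 10.4% ± 0.660 and 11.5% ± 1.82 (exact permutation p = 0.4, adjusted p = 0.64). By chromosome, the L1MdGf_I ratio was −0.69 on the autosomes, −0.50 on chromosome X and −0.85 on chromosome Y. With both sex chromosomes left out, the fitted change of L1MdGf_I was −0.73 with an adjusted p of 0.00590 in edgeR.

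Single elements were tested over the whole table. Of 5215 L1MdGf elements, 1506 passed the filter on low counts, 896 L1MdGf_I and 610 L1MdGf_II, and these were mostly long: 706 and 532. With edgeR, 0 of them passed, as 0.0473% of all 19030 tested elements did. Their smallest adjusted p was 0.0764. At an unadjusted p under 0.05 in edgeR, 159 were lower (10.6%) and 38 higher (2.52%) in Tet2-KO cells, beside 7.92% and 13.1% of all elements tested. In CPM of the element fit, the groups lay apart downward in 274 (18.2%) and upward in 49 (3.25%), beside 12.6% and 15.1% of all elements tested. These counts describe the elements that passed the filter, not all L1MdGf elements. DESeq2 called 52 lower (3.49%) and 12 higher (0.806%) L1MdGf elements, beside 3.48% and 8.06% of all elements. The Tet2-KO library sizes of the element fit were lower relative to WT, by −0.45 on the log2 scale, than those of the subfamily fit, so a log2 change of an element is higher by about that much than on the subfamily scale. With the subfamily scaling, 406 L1MdGf elements (27.0%) were lower and 13 (0.863%) higher at an unadjusted p under 0.05 in edgeR, beside 17.9% and 7.38% of all elements, whose median log2 change was −0.39.

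With that scaling edgeR called 1 lower and 6 higher elements of 19030. The lower one was an L1MdGf element, the one with the smallest adjusted p among L1MdGf elements in either fit, chosen for this after its values were seen. It is an L1MdGf_I element of 6532 bp on the minus strand at chr7:14951269-14957800, outside annotated genes and 3228 bp from Obox4-ps7, a pseudogene of the Obox homeobox family. It had 282, 401 and 345 counts in WT and 22.7, 24.8 and 32.8 in Tet2-KO libraries. Every Tet2-KO library was thus below every WT library by a wide margin. The log2 change was −2.62 ± 0.311 with an adjusted p of 0.0764 in edgeR, and −3.06 ± 0.293 with an adjusted p of 0.0496 in edgeR with the subfamily scaling. Of its windows 33.0% were unique.

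Among the 5 L1MdGf_I elements with the highest CPM, 4 overlapped between the groups. The highest, at chr16:82083938-82096794 in intergenic sequence, had 648, 751 and 1169 counts in WT and 334, 298 and 415 in Tet2-KO libraries. Its log2 change was −0.29 ± 0.219 on the element scale (adjusted p = 0.475 in edgeR). The next, a span of 15139 bp at chr3:6297412-6312550 without annotated genes, had 282, 497 and 236 counts in WT and 624, 655 and 468 in Tet2-KO libraries. In CPM of the element fit it was higher in every Tet2-KO library, at 1.79 ± 0.369 (adjusted p = 0.101 in edgeR). The other 3 lie at chrX:117087170-117095910, chrX:66493533-66501875 and chr3:17727824-17735325, each outside genes and each with the open reading frame of 3846 bases. Their log2 changes of 0.78, 0.78 and 0.49 had adjusted p from 0.270 to 0.553 in edgeR. At most 1.20% of the windows of these 3 were unique.

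The L1MdGf_II element with the most counts went against its subfamily. It lies on the minus strand at chr13:9832024-9838665 and overlaps an exon of Gm24187, annotated as a miRNA gene on the same strand. Its counts were 493, 851 and 1046 in WT and 852, 1107 and 1205 in Tet2-KO libraries, although the latter were shallower. In CPM of the element fit these were 294 ± 54.8 and 802 ± 179 (SD, n = 3), without overlap. The log2 change was 1.44 ± 0.249 on the element scale with an adjusted p of 0.101 in edgeR, and DESeq2 called it with an adjusted p of 0.00297. With the subfamily scaling the log2 change was 0.98 (adjusted p = 0.114 in edgeR). Each of its 100-base windows occurred more than once among the L1 elements searched, in which overlapping annotated spans were not merged. Whether its counts include reads of other copies was not tested. The other 4 of the 5 highest L1MdGf_II elements had overlapping groups, with log2 changes from −0.82 to 0.24. Of these, the element at chr9:114281642-114294482 overlaps an exon of 4921528I07Rik on the opposite strand, and the one at chr5:86594135-86603922 lies in an intron of Tmprss11f, a transmembrane serine protease gene, in antisense.

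Among elements that averaged 20 counts or more and had separate groups, the largest falls often rested on 1 or 2 WT libraries. An L1MdGf_II element of 3701 bp at chr10:47743562-47747262 had 397, 390 and 25.6 counts in WT and 5.93, 7.73 and 3.88 in Tet2-KO libraries, with a log2 change of −4.32 ± 1.07. An element at chr1:178211213-178215128 that overlaps an exon of Desi2 in antisense had 328, 18.4 and 43.6 in WT and 7, 2.70 and 8.27 in Tet2-KO libraries. An L1MdGf_I element at chr7:18312491-18318686 had 403, 20.97 and 32.7 in WT and 8.04, 8.17 and 8.58 in Tet2-KO libraries. In both, WT replicate 1 exceeded the other WT libraries by far. The remaining 2 falls lie at chr5:73444601-73447912, in an intron of Cwh43, and at chr4:7635248-7640394. Adjusted p over all 5 ranged from 0.101 to 0.202 in edgeR.

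The largest rises had the same limit in Tet2-KO libraries. Of the 5, the L1MdGf_I elements at chr4:27007436-27013653 and chr4:24284234-24289381 had 196 and 141 counts in Tet2-KO replicate 2, compared with 16.5 and 14.2 in replicate 1. Their log2 changes were 3.39 ± 0.909 and 3.10 ± 0.949. An L1MdGf_II element at chr3:98899374-98905751, 6135 bp from Hao2, had 110 counts in Tet2-KO replicate 3 and 20.5 and 12.4 in the others. The 2 remaining rises lie at chr7:55689368-55699185 and chr8:98837419-98846204. Adjusted p over all 5 ranged from 0.103 to 0.159 in edgeR. In 1829 L1MdGf elements with at least 50 counts in all, 2.35% had at least 90% of them in a single library.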

How the data were processed

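The labels name Trimmomatic 0.39, HISAT2 2.1.0 and Picard. Per the study's methods, reads were aligned with HISAT2, duplicates were removed with Picard MarkDuplicates and elements were counted with featureCounts. The deposited mm10 table holds the estimated counts that the authors obtained per repeat element and library. The options behind their fractional values, and the use of strand, are not given in the sources used here. The table has 0 columns of other samples, and its K-562 counterpart was not used.

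Counts were summed per subfamily, or per subfamily and length class with a limit at 5000 bp, over the classes DNA, LINE, LTR and SINE, and rounded. They were tested with edgeR 4.0.16 (R 4.3.3; filterByExpr, TMM, quasi-likelihood, prior count 2), as were single elements. Samples entered without a replicate block. P-values are two-sided with Benjamini–Hochberg adjustment, and calls have an adjusted p below 0.05. SE is the absolute log2 change over the square root of F. DESeq2 1.42.0 was an alternative. Ratios and shares were compared by exact permutation over the 20 assignments of 6 libraries. CPM of subfamilies, of length classes and of single elements used the TMM library sizes of their own fits. CPM in length bins and in the other classes of elements used those of the subfamily fit. The fits were tested on simulated data.

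Sequences come from the RefSeq mm10 assembly, primers from the study's supplement and genes from GENCODE M21, whereas the authors used M19. Coordinates are 1-based. 18 L1MdGf elements lay on contigs without a match and have no sequence here. Python 3.11.15, pandas 2.3.3 and matplotlib 3.10.9 were used. Named elements are the 5 with the highest mean CPM per subfamily, and up to 5 rises and 5 falls that averaged 20 counts or more, with separate groups. The members, lists and rules were chosen with earlier results of these data known. The unique-window share, the exclusion of sex chromosomes or of 3 elements that rose, and the exchange of library sizes between fits were chosen after seeing the data.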

Additional observations from a re-analysis of the deposited data

How the results depend on the processing

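The direction of all 6 L1MdGf sums held in every alternative. Relative to the median of all subfamilies, which ran from 0.02 to 0.56 over 19 settings, the log2 change of L1MdGf_I ran from −0.85 to −0.63 and that of L1MdGf_II from −0.79 to −0.53. With library totals alone the median was 0.29, L1MdGf_I −0.49 and L1MdGf_II −0.40. Library sizes of the element fit gave −0.22, −0.17 and −0.73 for L1MdGf_I, its long and its short elements, none of which passed. The DESeq2 Wald test called L1MdGf_II (−0.63) and its long (−0.48) and short (−0.83) elements. Leaving out 1 library gave −0.71 to −0.62 for L1MdGf_I and −1.30 to −1.09 for its short elements, which did not pass without WT replicate 1 or 3. Same-numbered libraries did not deviate together over subfamilies (correlations −0.09, −0.04 and −0.05). No library correlated best with its own number, so the numbers gave no sign of a pairing. So few libraries cannot exclude one. With the replicate block L1MdGf_I was at −0.67 (adjusted p = 0.0659) and its short elements at −1.15 (adjusted p = 0.0502), and its long elements still passed.

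Of subfamilies, 11 were called, 7 with DESeq2 size factors, 5 with library totals, 56 by DESeq2, 0 with the replicate block in edgeR (68 at an unadjusted p under 0.05), 7 without the 10 highest elements, 5 with elements of at least 10 counts, 6 with library sizes of the element fit and 5 to 8 without 1 library. Of length classes, 14 were called, 98 by DESeq2, 9 with the block and 7 to 15 without 1 library. Of elements, 9 were called, 2158 by DESeq2, 1 with the looser filter, 0 with the block (3128 at an unadjusted p under 0.05 in edgeR) and 0 to 0 without 1 library (3735 to 4059). Of L1MdGf elements, edgeR called 0 (159 lower and 38 higher at an unadjusted p under 0.05), 64 by DESeq2 and 1 with the subfamily scaling.

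The L1MdGf_I to L1MdTf ratio differed by −0.065 to 0.050 without 1 library, the L1MdGf_II share with primer sites by −0.459 to 5.06 points and the L1MdGf_I share in unique elements by −0.0630 to 0.103 points, each changing sign. So did 3 single elements without 1 library: chr10:48229074-48241838 (−0.54 to 0.21), chr13:53956763-53963673 (−0.11 to 0.57; −0.0079 with library totals, −0.19 with the subfamily scaling) and chr3:17727824-17735325 (−0.027 to 0.80). No other ratio or share changed sign. Of the non-zero L1MdGf values 23.8% were below 1 count, and what depth contributes to the number of element calls was not tested.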
